A study of Homo sapiens with 6 samples.

Results

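ACRO1, MER22 and 6kbHsap are 3 of the 1047 sequences against which RNA was quantified in H1 human embryonic stem cells, a line of pluripotent cells, at passages 40 to 60. Each is a consensus, one representative sequence that stands for many genomic copies, and was taken by its exact name. The 3 were chosen because their RNA was higher with doxycycline (dox) in cells carrying an empty vector and was not in cells carrying a rescue transgene. That difference chose them and is given below as a description, with no test. Of the sequences measured, 1045 bear names of repeats and the other 2 are the transcripts of ACTB and GAPDH.

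All 6 libraries came from H1 cells with a dox-inducible short hairpin RNA against EXOSC3, a subunit of the RNA exosome. The PB cells also carried an empty vector, and 1 library was made without dox and 1 with it. The EXOSC3r cells carried an EXOSC3 transgene that the hairpin does not recognise, and each of 2 clones gave 1 library without dox and 1 with it. Every control therefore carried the hairpin construct too, no library lacked it, and each EXOSC3r line is a single clone. The labels do not say whether the clones or the dox treatments were separate cultures, so the spread between libraries may be technical in part. The level of EXOSC3 was not analysed here, and neither its depletion nor its rescue was checked.

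The RNA exosome trims and degrades RNA from its 3′ end, and in the nucleus it removes many short-lived transcripts of intergenic and repetitive DNA. Satellites are repeats in which similar units follow each other in long arrays, mostly at centromeres, beside them, or on the short arms of the acrocentric chromosomes, and their RNA is usually scarce. ACRO1 is a satellite named for the acrocentric chromosomes, and 6kbHsap is classed as a satellite in repeat libraries. MER names denote medium reiterated frequency repeats, a naming series that mixes several kinds of element, and no file used here gives the class of MER22. The files hold names, lengths, effective lengths, estimated counts and TPM values only. Whether the reads came from tandem arrays could therefore not be read from them, and the copies behind each name have no single genomic position.

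The total of estimated counts assigned to the 1047 sequences was between 3745262 and 5260196 per library, which is not the sequencing depth. The share of Alu, the most abundant repeat, ranged from 33.0% in PB cells with dox to 52.5% in EXOSC3r clone 1 with dox. Levels are given below as TMM-scaled CPM, in which each library's counts are divided by its size after a scaling that centres the typical sequence, and 3 other scales follow further on. HERVH, a retroviral repeat whose RNA is abundant in human pluripotent cells, was at 28392 CPM in PB cells and 35678 CPM with dox. It was at 27572 and 20519 CPM in clone 1 without and with dox, and at 28169 and 21046 CPM in clone 2. Genes that mark these cells were not analysed here.

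The 3 sequences differ widely in length and abundance. ACRO1 is 147 bases long, shorter than all but 6 of the 699 sequences that passed the count filter (at least 10 counts in at least 1 library). MER22 is 1563 bases long and 6kbHsap 6018, against a median of 666 over the 699. All 3 passed that filter, but ACRO1 passed it only through the PB libraries. Where all 6 libraries had to reach 10 counts, 613 sequences were left, MER22 and 6kbHsap among them.

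ACRO1 was the scarcest of the 3. In PB cells its estimated count was 13.7 without dox and 162 with dox. It was 6.40 and 6.01 in clone 1 without and with dox, and 8.69 and 9.16 in clone 2. The PB library with dox stood apart from the other 5, and none of those held more than 14 rounded counts. Rounded to whole counts, the exact 95% Poisson interval was 7.65 to 23.5 for PB without dox and 138 to 189 with dox, while it was 2.20 to 13.1 in each clone 1 library and 4.12 to 17.1 in each clone 2 library. These intervals, like all intervals on counts here, cover counting error only.

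MER22 lay between ACRO1 and 6kbHsap in abundance. In PB cells it had 1036 counts without dox and 2389 with dox, against 738 and 747 in clone 1, and 780 and 760 in clone 2. Its counts were whole numbers (to within 1e-06) in all 6 libraries, whereas those of ACRO1 and 6kbHsap were fractional in all 6. An estimated count is fractional where reads that fit several sequences are divided between them. Counts were whole in all 6 libraries for 236 of the 699 sequences (33.8%) and for 16 of the 19 tested satellites other than these 3. How many reads ACRO1 and 6kbHsap share, and with which sequences, was not tested. Reads from genes whose transcripts contain a copy of a repeat count towards it too.

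6kbHsap was the most abundant of the 3. In PB cells it had 7836 counts without dox and 15857 with dox, against 5984 and 6090 in clone 1, and 5983 and 6468 in clone 2. By count its rank among the 1047 sequences went from 48th to 30th with dox in PB cells and lay between 48th and 51st in the clones. MER22 went from rank 186 to 127 in PB cells and lay between 190 and 200 in the clones. ACRO1 went from 643 to 405 and lay between 656 and 675 in the clones.

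In TMM-scaled CPM, each of the 3 was highest in PB cells with dox, and the other 5 libraries lay close together for MER22 and 6kbHsap and less so for ACRO1. ACRO1 was at 2.73 CPM in PB cells and 29.3 CPM with dox, at 1.49 and 1.53 CPM in clone 1, and at 2.25 and 2.19 CPM in clone 2. MER22 was at 202 CPM in PB cells and 431 CPM with dox, at 183 and 191 CPM in clone 1, and at 195 and 185 CPM in clone 2. 6kbHsap was at 1529 CPM in PB cells and 2863 CPM with dox, at 1482 and 1557 CPM in clone 1, and at 1496 and 1575 CPM in clone 2. The PB library with dox exceeded the highest of the other 5 by 10.7-fold for ACRO1, 2.13-fold for MER22 and 1.82-fold for 6kbHsap. Among those 5 the highest exceeded the lowest by 1.84-fold for ACRO1, 1.11-fold for MER22 and 1.06-fold for 6kbHsap. The values come from bulk RNA, in which more cells with such RNA and more of it per cell cannot be told apart.

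**Figure D1:**
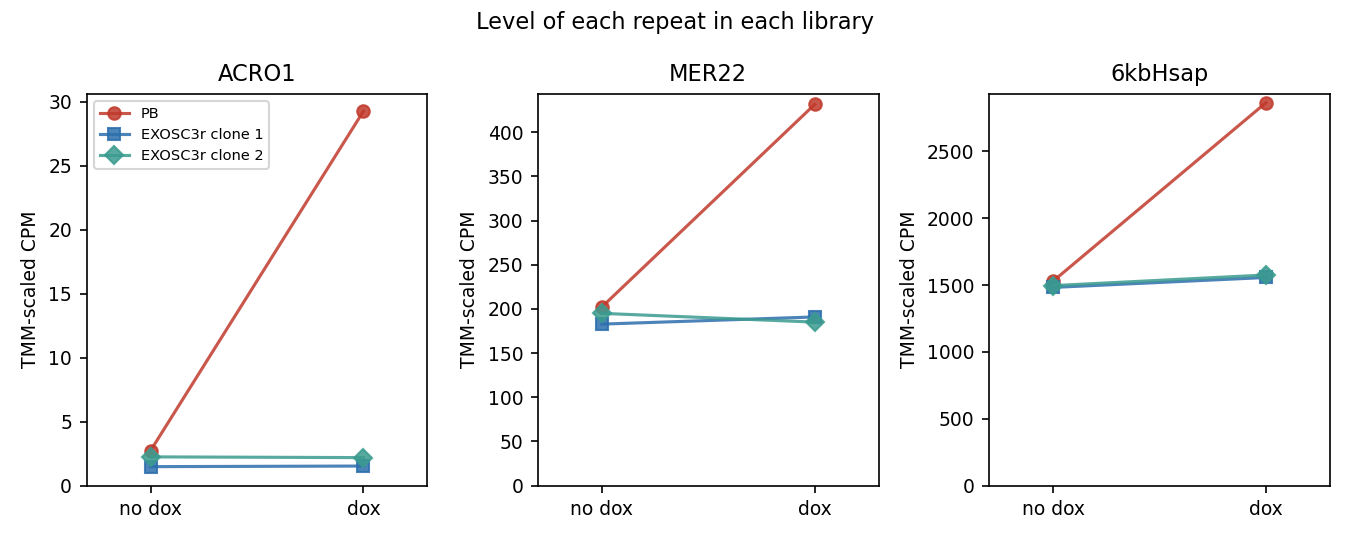
TMM-scaled CPM (vertical axis, from 0) of ACRO1, MER22 and 6kbHsap without and with dox (horizontal axis), 1 point per library, with lines joining the libraries of PB, EXOSC3r clone 1 and EXOSC3r clone 2. The PB library with dox lies at 29.3, 431 and 2863 CPM, above the other 5 points of each panel, which lie at 1.49 to 2.73, 183 to 202 and 1482 to 1575 CPM.

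In PB cells the ratio of the level with dox to that without was 10.7 for ACRO1, with a 95% counting interval of 6.20 to 20.03. For MER22 the ratio was 2.13 (1.98 to 2.30), and for 6kbHsap it was 1.87 (1.82 to 1.92). These libraries chose the 3 sequences, so the intervals give the counting precision of the ratios and test nothing. There was 1 PB library per arm, so no spread between PB replicates stands behind the ratios. In the fit over all sequences, which borrows the spread between the clones, the log2 changes were 3.41 ± 0.47 (SE) for ACRO1, 1.09 ± 0.11 for MER22 and 0.91 ± 0.09 for 6kbHsap. The share of calls in that comparison was 0.858%, 6 of 699 sequences higher with dox and 0 lower (edgeR quasi-likelihood test, adjusted p under 0.05). The 3 are among those 6, and nothing is read from that, since the rule used this contrast. The count fell to 0 when clone 1 without dox was left out of the fit.

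The gain of the 3 together was 1590 CPM in PB cells, from 1734 to 3324 CPM. Most of it, 83.9%, was 6kbHsap, while MER22 made up 14.4% and ACRO1, which had the largest ratio, 1.67%. In the 4 EXOSC3r libraries the sum lay between 1667 and 1763 CPM.

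In the EXOSC3r clones the ratios lay near 1. For ACRO1 the ratio of the level with dox to that without was 1.03 in clone 1 (95% counting interval 0.276 to 3.86) and 0.974 in clone 2 (0.343 to 2.77). These intervals are wide because each rests on 6 and 6 or 9 and 9 counts, and they leave room for changes of over 2-fold in either direction. For MER22 the ratio was 1.04 in clone 1 (0.942 to 1.16) and 0.949 in clone 2 (0.858 to 1.05), one above and one below 1 and both intervals across it. For 6kbHsap the ratio was 1.05 in both clones, with intervals of 1.01 to 1.09 in clone 1 and 1.02 to 1.09 in clone 2 that lay just above 1 by counting error alone.

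**Figure D2:**
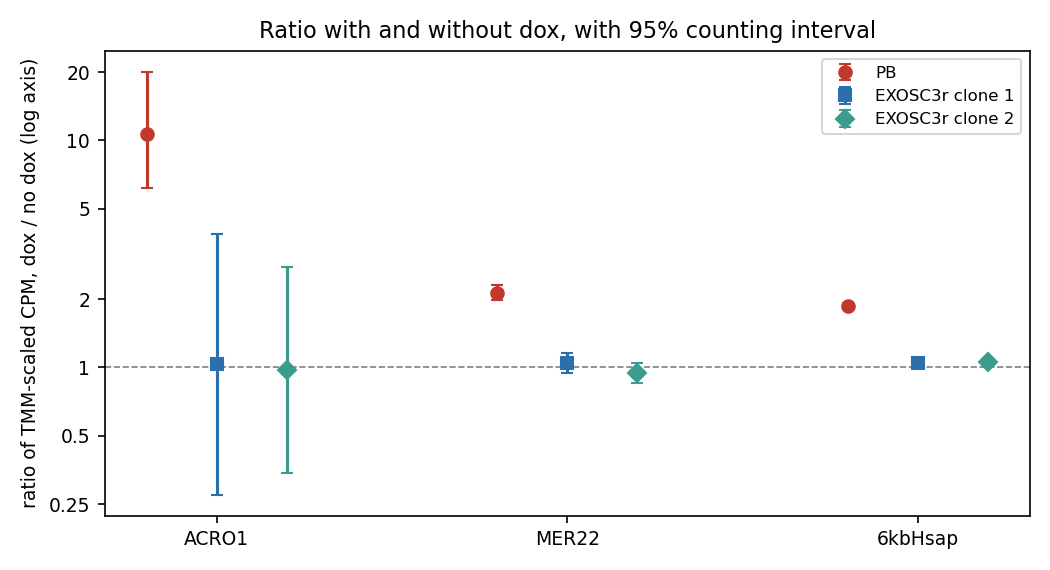
Ratio of TMM-scaled CPM with dox to that without (vertical log axis) for ACRO1, MER22 and 6kbHsap in PB, EXOSC3r clone 1 and EXOSC3r clone 2, where points are ratios of 2 libraries and bars are exact 95% counting intervals. The PB points lie at 10.7, 2.13 and 1.87, the clone points lie between 0.949 and 1.05, and the clone intervals of ACRO1 reach from 0.276 to 3.86.

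Over both clones, the log2 change with dox in the fit was 0.0013 ± 0.48 (SE) for ACRO1, -0.0070 ± 0.08 for MER22 and 0.07 ± 0.06 for 6kbHsap. Of the 699 sequences, 1 was called higher in that comparison, a share of 0.143%, and 0 were called lower (edgeR, with 22 at an unadjusted p under 0.05 and 4 called by DESeq2, 3 higher and 1 lower). That 1 was ALR, an alpha satellite. The rule used this contrast too, so whether the 3 were called in it is not read as a result. The count was 0 without clone 1 lacking dox or clone 2 with dox, and 2 without either of the other clone libraries. With the line as a block 9 were called, 4 higher and 5 lower. Leaving out 1 clone library at a time moved the log2 change between -0.28 and 0.32 for ACRO1 and between -0.05 and 0.03 for MER22, so that the sign of both turned with single libraries.

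Set against each clone, the log2 response in PB cells exceeded that of the clone by 3.38 (clone 1) and 3.46 (clone 2) for ACRO1. The excess was 1.03 and 1.17 for MER22 and 0.83 in both clones for 6kbHsap. All of these share the 2 PB libraries, and the choice of the 3 sequences fixed their direction. In the test of the difference itself, 0 of 699 sequences (0%) passed with edgeR, 9 had an unadjusted p under 0.05, and DESeq2 called 3. With the line as a block, edgeR called 3. Without clone 2 with dox, or without clone 2 lacking dox, edgeR called 1.

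The ratios stayed above 1 in PB cells on each of 4 scales, while those of the clones changed side with the scale. In PB cells the ratio of ACRO1 was 10.7 in TMM-scaled CPM, 11.4 as a share of assigned counts, 12.1 per count of ACTB and GAPDH together and 12.5 in deposited TPM. For MER22 the same 4 scales gave 2.13, 2.27, 2.40 and 2.50, and for 6kbHsap 1.87, 1.99, 2.11 and 2.20. In clone 1, by contrast, the ratio of 6kbHsap was 1.05 in TMM-scaled CPM and 0.894, 0.940 and 0.794 on the other 3 scales. In clone 2 it was 1.05 against 1.14, 1.16 and 1.15. MER22 and ACRO1 likewise lay below 1 in clone 1 and above 1 in clone 2 on the 3 scales other than TMM, the reverse of their order in TMM-scaled CPM. The share of Alu moved with these scales: it went from 45.4% to 52.5% of counts in clone 1, from 41.8% to 40.1% in clone 2 and from 37.3% to 33.0% in PB cells. Its part in the ratios on each scale was not tested.

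**Figure D3:**
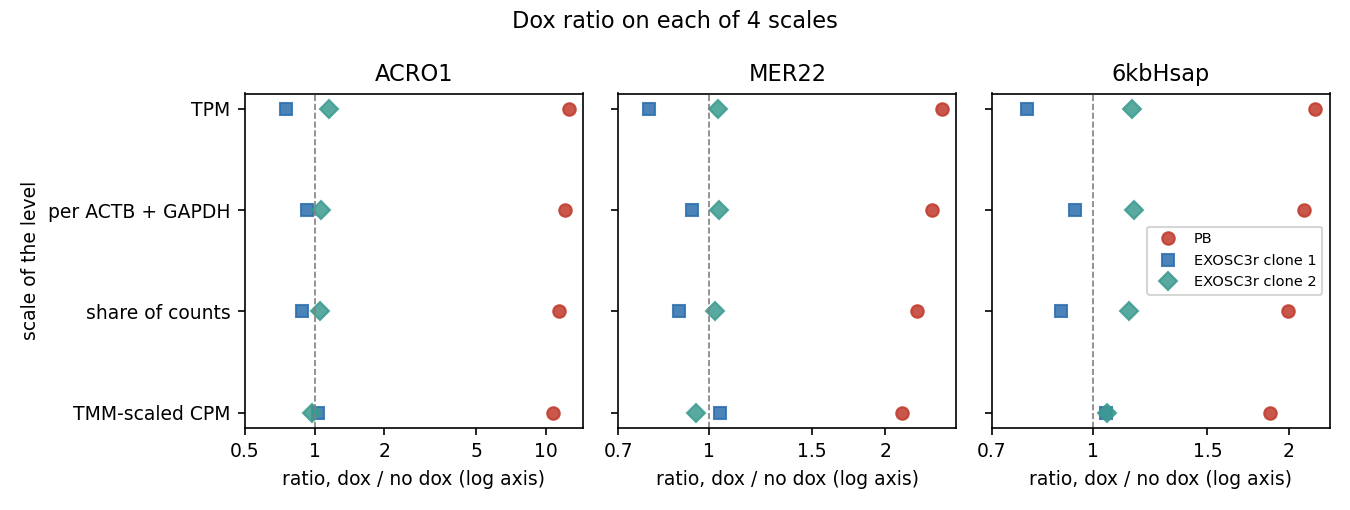
Ratio of the level with dox to that without (horizontal log axis) on 4 scales (vertical axis) for ACRO1, MER22 and 6kbHsap, 1 point per line. The PB points lie at 10.7 or more for ACRO1, 2.13 or more for MER22 and 1.87 or more for 6kbHsap on each scale, while clone 1 lies below 1 and clone 2 above 1 on the 3 scales other than TMM-scaled CPM.

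Levels of different sequences can be compared only per length, and for the short ACRO1 the result turned on which length was used. The deposited TPM values divide by an effective length, the number of positions at which a fragment can start. It was 28.5 to 30.5 bases for ACRO1, 19.4% to 20.7% of its length, but 89.6% to 90.0% of the length for MER22 and 97.3% to 97.4% for 6kbHsap. By TPM, the order in PB cells was 6kbHsap (87.4), MER22 (48.2) and ACRO1 (30.2). In PB cells with dox it was ACRO1 (378), 6kbHsap (192) and MER22 (120). In the 4 EXOSC3r libraries TPM lay between 44.7 and 82.1 for 6kbHsap, between 22.9 and 40.3 for MER22 and between 9.06 and 23.2 for ACRO1, in the same order in each.

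Per kilobase of full length, ACRO1 was the lowest of the 3 in all 6 libraries. In PB cells with dox it had 1105 counts per kb, against 1528 for MER22 and 2635 for 6kbHsap, and in PB cells without dox 93.0 against 663 and 1302. The first place of ACRO1 in PB cells with dox therefore held for TPM only. By TPM it ranked 98th of the 1047 sequences in that library and between 324th and 397th in the other 5.

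**Figure D4:**
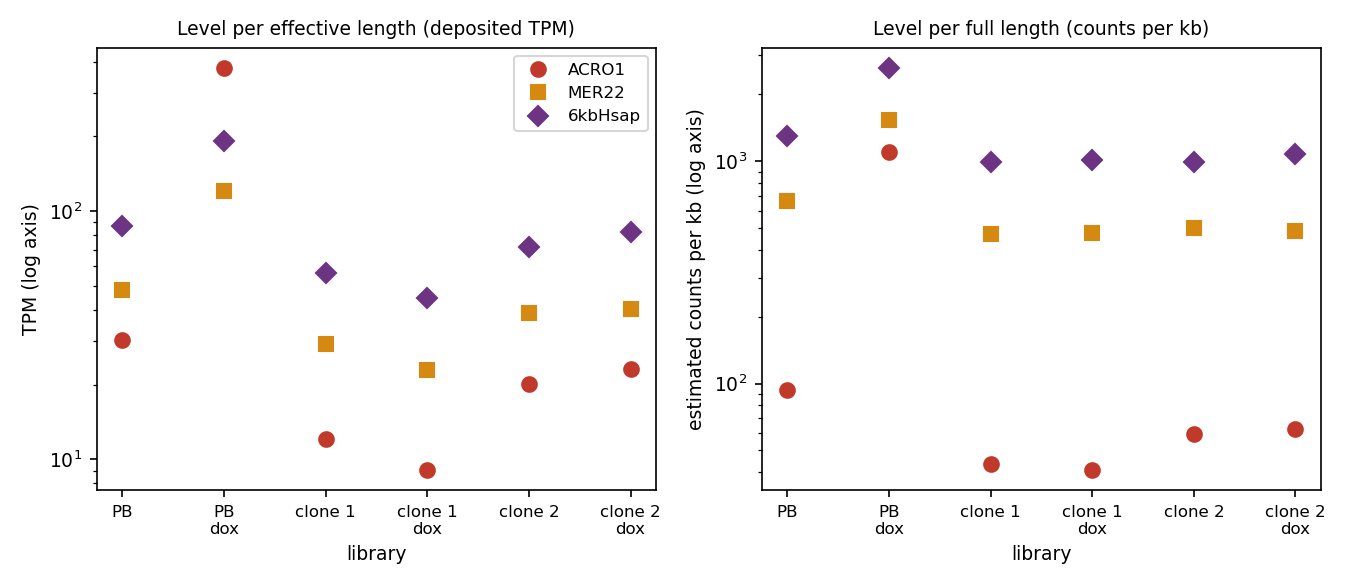
Level per length of ACRO1, MER22 and 6kbHsap in each library (horizontal axis), as deposited TPM per effective length (left, log axis) and as estimated counts per kb of full length (right, log axis), 1 point per library. In PB cells with dox ACRO1 is the highest of the 3 by TPM (378) and the lowest per full length (1105 counts per kb).

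The comparison of EXOSC3r with PB cells without dox was not used to choose the 3, although it shares the libraries without dox with the contrasts that were. ACRO1 was at 1.87 ± 0.54 CPM (SD, n = 2 clones) in EXOSC3r cells and at 2.73 CPM in PB cells. The log2 difference was -0.54 ± 0.53 (SE, edgeR adjusted p = 0.971). ACRO1 passed the count filter only through the PB libraries, and PB cells are 1 side of this comparison. Its difference and p are therefore no independent test. MER22 was at 189 ± 8.62 CPM (SD, n = 2) against 202 CPM, a difference of -0.10 ± 0.09 (edgeR adjusted p = 0.971). 6kbHsap was at 1489 ± 9.49 CPM (SD, n = 2) against 1529 CPM, a difference of -0.04 ± 0.08 (edgeR adjusted p = 0.974). All 3 were lower in both clones than in PB cells, and none passed. The libraries without dox are also the denominators of the dox ratios that chose the 3. The differences and p of MER22 and 6kbHsap are therefore not independent of the choice either. By counting error alone, the interval of the ratio to PB cells lay below 1 for MER22 in clone 1 (0.904, 0.822 to 0.995) and held 1 for MER22 in clone 2 and for the other 2 sequences in both clones. In this comparison 0 of 699 sequences (0%) passed with edgeR, 16 had an unadjusted p under 0.05, and DESeq2 also called 0. Without clone 1 with dox, edgeR called 1.

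The 95% interval of the ratio of EXOSC3r to PB cells without dox, from the same fit, was 0.798 to 1.09 for MER22 and 0.856 to 1.11 for 6kbHsap. For ACRO1 it was 0.284 to 1.66, with the limit from the count filter given above. These intervals hold for TMM scaling only. The SE of the log2 difference was 0.09 for MER22 and 0.08 for 6kbHsap with it, 0.44 and 0.46 with total counts, 0.68 and 0.64 with ACTB and GAPDH scaling, and 0.75 and 0.73 with limma on log2(TPM + 1). Per count of ACTB and GAPDH, the ratio to PB cells without dox was 0.546 in clone 1 and 0.802 in clone 2 for MER22, 0.585 and 0.813 for 6kbHsap, and 0.328 and 0.685 for ACRO1. Over the alternatives run, the adjusted p was between 0.653 and 1.00 for MER22, between 0.810 and 1.00 for 6kbHsap and between 0.746 and 1.00 for ACRO1.

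With dox, and in TMM-scaled CPM, PB cells exceeded clone 1 by 19.1-fold for ACRO1 (95% counting interval 8.58 to 52.7) and clone 2 by 13.3-fold (6.86 to 29.7). For MER22 the ratios were 2.26 (2.08 to 2.46) and 2.33 (2.15 to 2.53), and for 6kbHsap 1.84 (1.79 to 1.89) and 1.82 (1.77 to 1.87). As shares of assigned counts the ratios to clone 1 and clone 2 were 31.1 and 14.8 for ACRO1, 3.68 and 2.58 for MER22, and 2.9998 and 2.01 for 6kbHsap. In TPM they were 41.7 and 16.3 for ACRO1, 5.25 and 2.99 for MER22, and 4.29 and 2.34 for 6kbHsap. PB cells were higher on each of these scales, and the size of the ratio, to clone 1 above all, depended on the scale. All of them rest on the 1 PB library with dox that the rule used, so they are no independent sign of a difference. The share of sequences called lower in EXOSC3r cells in this comparison was 1.00%, 7 of 699, and 0 were called higher. The calls numbered 3 without clone 1 lacking dox, 3 without clone 1 with dox and 11, of which 4 were higher and 7 lower, without clone 2 with dox. With the line as a block 22 sequences were called, 10 higher and 12 lower.

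The 2 clones, which the rule did not set against each other, were compared last. In TMM-scaled CPM, the ratio of clone 2 to clone 1 was 1.01 for 6kbHsap both without and with dox, with 95% counting intervals of 0.973 to 1.05 and 0.977 to 1.05. For MER22 it was 1.07 (0.963 to 1.18) without and 0.969 (0.875 to 1.07) with dox. For ACRO1 it was 1.51 (0.481 to 5.17) and 1.43 (0.454 to 4.88). All 6 of these intervals held 1, and those of ACRO1 reached 4.88 or more. On the 3 other scales clone 2 was the higher of the clones. Without and with dox its ratio to clone 1 was 1.17 and 1.49 for 6kbHsap as a share of assigned counts, 1.39 and 1.71 per count of ACTB and GAPDH, and 1.27 and 1.84 in TPM. For MER22 the ratios in TPM were 1.34 and 1.76, and for ACRO1 1.67 and 2.56. The near-equal levels of MER22 and 6kbHsap in the clones were thus seen in TMM-scaled CPM and on none of these 3 other scales. Over the 4 EXOSC3r libraries, again in TMM-scaled CPM, the coefficient of variation was 2.97% for 6kbHsap, 2.94% for MER22 and 22.1% for ACRO1. These libraries include those with dox, and the rule asked for no rise with dox in the clones. A small spread over them is therefore favoured by the choice.

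Besides the 3 chosen sequences, which the rule took by this contrast, those called in PB cells were, in order of p, ALRb, ALR1 and ALR. These are alpha satellites, the family that forms the core arrays of human centromeres, and ALR was also called in the clones. With dox, the log2 change was 1.72 in PB and 0.98 in EXOSC3r cells for ALRb, 1.37 and 0.95 for ALR1, and 1.14 and 1.11 for ALR. The first 2 sequences outside the threshold were HUERS-P1, an endogenous retrovirus, whose log2 change was 0.50 ± 0.11 (SE) in PB and 0.36 in EXOSC3r cells, and LTR70, a long terminal repeat, with 0.42 ± 0.10 and 0.16. By point values, the 3 chosen sequences thus differ from the other called ones in the clones, between -0.0070 and 0.07 against 0.95 to 1.11. That is what the rule asked for. For ACRO1 the change in the clones was 0.0013 ± 0.48 (SE), on 6 to 9 rounded counts per clone library. The counting intervals of its ratio reached 3.86 in clone 1 and 2.77 in clone 2, so a rise like that of ALR is not excluded.

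By size alone, 29 of the 699 sequences had a log2 change in PB cells at least as large as that of 6kbHsap, the smallest of the 3. Of these, 4 had a mean of at least 100 CPM, namely MER22, 6kbHsap, ALR and ALR1. The 5 sequences with a larger change than ACRO1 had between 10 and 384 counts in the library where each was highest.

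**Figure D5:**
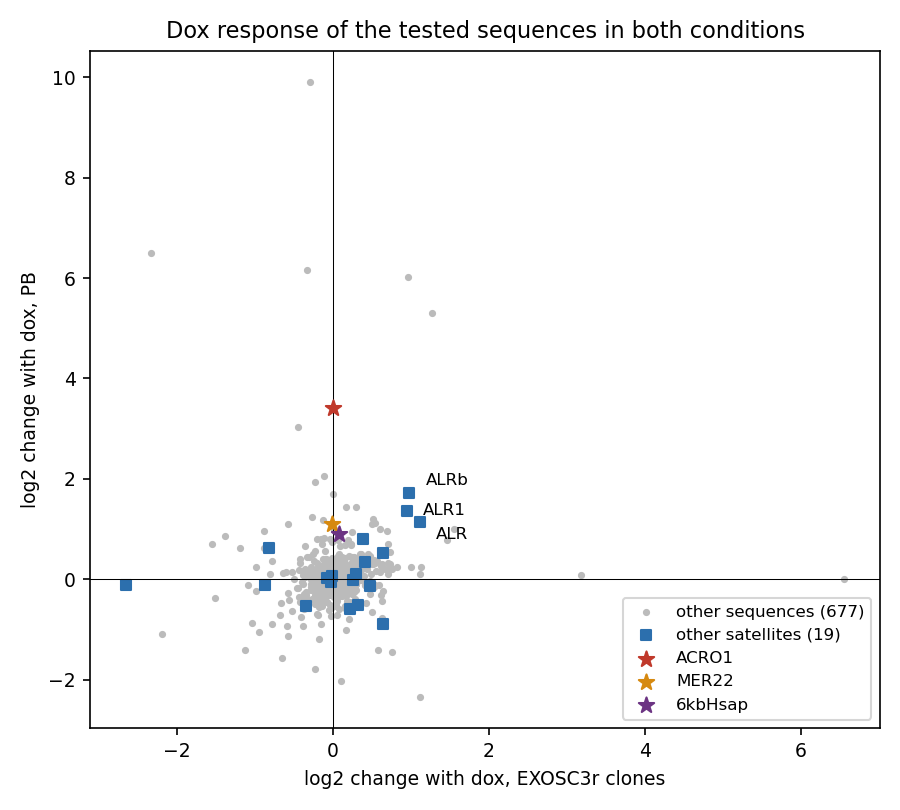
Log2 change with dox in PB cells (vertical axis) against that in EXOSC3r clones (horizontal axis) for the 699 tested sequences, with the 19 other satellites as squares and ACRO1, MER22 and 6kbHsap as stars. The stars lie at 3.41, 1.09 and 0.91 on the vertical axis and between -0.0070 and 0.07 on the horizontal one, while ALR, ALR1 and ALRb lie between 0.95 and 1.72 on both.

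The list of other satellites, made by name, held 32 sequences, of which 19 were tested. In PB cells 3 of the 19 rose (ALR, ALR1 and ALRb) and 0 fell (edgeR adjusted p between 0.0180 and 0.0266). Their median log2 change was 0.03, against 0.0037 over all 699 sequences, and 10 of the 19 were above 0. In EXOSC3r cells 1 of 19 rose (ALR, adjusted p = 0.026) and 0 fell, with a median of 0.29 against 0.0052. With limma on log2(TPM + 1), 0 of 19 rose there and 1 fell, and ALR was not called. Under dox 3 of 19 (ALR, ALR1 and ALRb) were lower in EXOSC3r than in PB cells (edgeR adjusted p between 0.035 and 0.046) and 0 were higher. Their log2 differences were -0.81 for ALR, -0.92 for ALR1 and -1.19 for ALRb. The same 3 were also lower without dox, at -0.79, -0.49 and -0.45, though not called there. Without dox and in the difference of responses 0 of 19 passed with edgeR. Without clone 1 lacking dox, 0 of 19 were called in any of these comparisons. Without clone 1 with dox or clone 2 lacking dox 2 of 19 were called in EXOSC3r cells, and without clone 2 with dox 0. Without clone 1 with dox 0 of 19 were called between EXOSC3r and PB cells with dox. With the line as a block, 2 of 19 were called in EXOSC3r cells and 5 between EXOSC3r and PB cells with dox.

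SN5, the satellite with the lowest log2 change with dox in PB cells, had a change of -0.88 ± 0.72 (SE, edgeR adjusted p = 1.00), from 4.68 to 2.53 CPM. ALRb had the highest, 1.72 ± 0.20, from 34.1 to 113 CPM. Ribosomal, small nuclear and transfer RNAs are kinds of RNA that the exosome is known to process. A search of the sequences by name found none of them, so they were not analysed here.

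Over 526 candidate sequences with a mean of at least 10 CPM, likeness to each of the 3 was measured as the Pearson correlation of log2(CPM + 1) over the 6 libraries. Outside the 3, the sequence most like each of them was L1HS, the youngest human L1 element, with r of 0.977 for ACRO1, 0.970 for MER22 and 0.955 for 6kbHsap. L1HS was at 54061 CPM in PB cells and 65032 CPM with dox and between 52535 and 56096 CPM in the clones, a log2 change in PB cells of 0.27, below those of the 3. MER41A (0.966 and 0.944) and MER61B (0.948 and 0.939) followed for ACRO1 and MER22, and LTR43 (0.941) and LTR9B (0.933) for 6kbHsap.

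These values are largely set by the PB library with dox. Without it, over the other 5 libraries, the correlation with L1HS was 0.64 for ACRO1, 0.51 for MER22 and -0.07 for 6kbHsap. That of ACRO1 with MER41A was 0.975, while the log2 change of MER41A in PB cells was 0.10. In those 5 libraries ACRO1 rests on 6 to 14 rounded counts, which limits each of its correlations there. MER41A was also picked for its correlation with ACRO1 over libraries that include those 5. No likeness is read from that value. The 3 were correlated with each other at 0.985 to 0.994 over all 6 libraries, a likeness that their choice by that library favours. Without that library the correlation was 0.72 between ACRO1 and MER22, 0.16 between ACRO1 and 6kbHsap and -0.01 between MER22 and 6kbHsap. The points of all these correlations share the scaling of each library.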

How the data were processed

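The members and the lists were chosen with earlier results of these data known. The libraries were stranded, from total RNA depleted of ribosomal RNA, per the labels. The tools named are Salmon 0.13.0, Trimmomatic 0.36 and bcl2fastq 2.17, per the submitters' processing notes. The index, its build and the options are not given in the sources used here. Per the file headers, the authors deposited for each sequence an estimated count (not normalised), a TPM value (per effective length, with equal library totals), its length and its effective length.

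Counts were rounded, and 699 of 799 sequences with any count had at least 10 in at least 1 library. edgeR 4.0.16 (R 4.3.3) fitted 4 group means with TMM scaling and 2 residual degrees of freedom, adjusting over all 699 (Benjamini-Hochberg, 0.05). The SE is the log2 change divided by the root of F. Lone PB libraries are assumed to vary like a clone. Ratios of 2 libraries have exact binomial intervals. DESeq2 1.42.0 and limma 3.58.1 were alternatives.

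Clone numbers pair libraries of the same cell line. Deviations of clone 1 from the clone mean, without and with dox, had a correlation across sequences of 0.15 (699) and 0.60 (253 with at least 100 CPM). The chi-square per degree of freedom between any pair of libraries was at least 21.3, so none was a copy. In simulated counts for dox in PB cells (694 sequences), the fit recovered 21.2%, 51.5% and 89.4% of log2 changes of 0.5, 1 and 2, and 2 of 109 calls were false. For EXOSC3r minus PB without dox (687 sequences) it recovered 35.4%, 64.2% and 90.9%, and 8 of 134 calls were false. Far more sequences were changed in the simulation than were called in the data. This eases the adjusted threshold, so the recovery may be too high for the data. Named besides the members were other satellites past the threshold or with the largest change in PB cells, the 3 sequences most like each member, the neighbours in order of p, and ACTB and GAPDH; Alu and HERVH were named for scale and cell type.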

Additional observations from a re-analysis of the deposited data

How the results depend on the processing

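The members' log2 changes kept their direction under the 12 alternatives (11 for ACRO1, which the stricter filter, 10 counts in every library, removed) in PB cells, between EXOSC3r and PB cells and in the difference of responses. In PB cells they ranged from 3.39 to 3.50 for ACRO1, 1.08 to 1.18 for MER22 and 0.89 to 0.99 for 6kbHsap. Shifts of the median sequence over 0.1 were first taken out (up to -0.76 with TPM). Alternatives that differ by the scaling alone then agree largely by construction, so these ranges do not test the scaling. Every alternative also used the same PB libraries, since only clone libraries were left out, so the change in PB cells could hardly move. The choice of the members fixed its direction and that of the difference of responses. The kept directions are therefore no independent sign that the changes are stable. For dox in PB cells the shifts taken out were 0.17 with ACTB and GAPDH scaling and 0.22 with limma on log2(TPM + 1). That of total counts, 0.09, was under the limit and stayed in, which left 6kbHsap at 0.99, outside its counting interval. The ratios given above on each scale had no shift taken out. In PB cells a member's move was judged by whether the value lay in its counting interval. Without dox it was judged by whether the sign or the call changed. In the other comparisons it was judged against the larger of the clone SD and a margin from the counting interval. Moves of the median of the other satellites were judged against the clone SD alone. For each change given next, the cause was not tested.

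Counts past the threshold changed by over 1.5 times as follows, and they are not subsets of the calls reported above: of the 6 sequences called in PB cells, total counts called 1, ACTB and GAPDH scaling 0 and limma 1 (of 4 calls), while DESeq2 and the block called all 6. Total counts gave 2 in PB cells, 0 in EXOSC3r cells, 3 for EXOSC3r minus PB with dox, 1 without dox and 1 for the difference of responses. ACTB and GAPDH scaling gave 1, 0, 1, 1 and 1, limma on log2(TPM + 1) 2 in EXOSC3r cells, 4 with dox, 2 without and 3 for the difference, and DESeq2 size factors 0 in EXOSC3r cells. DESeq2 gave 4 in EXOSC3r cells and 3 for the difference, and the stricter filter 2 and 2. With the line as a replicate block there were 9 in EXOSC3r cells, 22 with dox and 3 for the difference; the block changed no call of the members without dox. Leaving out 1 clone library gave 0 to 7 in PB cells, 0 to 2 in EXOSC3r cells, 3 to 11 with dox, 0 to 1 without and 0 to 1 for the difference; the count was 0 in PB cells without the clone 1 library lacking dox.

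Of the other satellites, total counts and ACTB and GAPDH scaling called 0 in PB and EXOSC3r cells and 1 and 0 with dox, limma 0 in PB cells and 1, lower and not ALR, in EXOSC3r cells, DESeq2 size factors 0 in EXOSC3r cells and 1 with dox, DESeq2 3 in EXOSC3r cells, the stricter filter 2 there and the block 2 there and 5 with dox. Without single libraries the calls were 0 to 3 in PB cells, 0 to 2 in EXOSC3r cells and 0 to 3 with dox. Their median in PB cells was 0.01 with DESeq2 size factors and with DESeq2 (0.0122), 0.12 with total counts and 0.0661 with the stricter filter. In EXOSC3r cells it was 0.25 with total counts, 0.32 with the stricter filter, 0.27 with limma and 0.15 to 0.35 without single libraries. With dox it was 0.09 with ACTB and GAPDH scaling (0.0889) and with limma (0.0901), 0.0258 with the block and -0.17 to 0.0720 without single libraries, and without dox -0.22 to -0.13. For the difference it was -0.0594 with the stricter filter, -0.12 with limma, -0.0319 with the block and -0.0921 to 0.12 without single libraries. ACRO1 counts of 6 to 14 limit what could be seen of it outside PB cells with dox.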
